A study of Mus musculus with 6 samples.

Results

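Genes that mark the cells of brain blood vessels were followed in hippocampal messenger RNA from mice lacking miR-301a and from wild-type mice. The set held 35 of the 54393 genes in the table, taken by gene name: 26 genes of endothelial cells, 8 of which carry nutrients, hormones or drugs across the blood-brain barrier, and 9 genes of mural cells, 6 of pericytes and 3 of smooth muscle. All 35 names were found in the table. The genes were grouped by the vessel cell they are known for, and RNA from other hippocampal cells in their values was not tested. The knockout (KO) group was miR-301a-/- mice and comprised 3 libraries with the codes 1-1, 2-2 and 3-1. The wild-type (WT) group comprised 3 libraries with the codes 1-1, 2-1 and 2-2. Animals of both genotypes were C57BL/6, untreated and 6 to 8 weeks old, and the whole hippocampus was used, so vessel RNA is a small part of the total. How the knockout was made, whether a code marks an animal, and whether each library came from 1 animal or a pool are not stated in the labels. The p-values therefore reflect only how these 6 libraries spread, and part of that may be technical.

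Values are FPKM-like, that is, reads scaled to gene length and library depth. Each library listed 24101 to 25121 genes above 0, mitochondrial transcripts made up 16.1% to 22.8% of the summed values, and log2 values of pairs of libraries correlated across genes at 0.981 to 0.986 (genes are not independent replicates). The steps between low values corresponded to depths (in units of 1e+06 reads) of 17.0 to 27.1 in KO libraries and 20.1 to 28.2 in WT libraries. The Mir301 gene was listed at 0 in all 6 libraries, WT included, so this table does not check the genotype labels.

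Endothelial cells line every vessel, and in the brain they are sealed to each other by tight junctions. Because little passes between them, glucose, amino acids, lactate, thyroid hormone and lipids cross through dedicated carriers, while ABC pumps return drugs to the blood. Pericytes sit on the capillary wall within the same basement membrane, and smooth muscle cells ring the arterioles and set their width. A microRNA binds messenger RNAs mainly through its seed, bases 2 to 8 from its 5′ end, and pairing in a 3′ UTR usually lowers the transcript.

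The mature sequences below are those of the microRNA named in the genotype and of the relatives found in RefSeq (GRCm38.p6), with the seed in capitals. They are shown because all 3 carry the same seed, and 2 of them are encoded outside the miR-301a gene. miR-301a-3p lies on the plus strand at chr11:87113054-87113076, miR-130a-3p on the minus strand at chr2:84741116-84741137, and miR-130b-3p on the minus strand at chr16:17124071-17124092. miR-301b-3p is a further relative by name.
mmu-miR-301a-3p: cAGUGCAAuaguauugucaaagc
mmu-miR-130a-3p: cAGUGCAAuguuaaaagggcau
mmu-miR-130b-3p: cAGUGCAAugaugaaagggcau

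The DNA heptamer that pairs with this seed, TTGCACT, was searched on the sense strand of the longest annotated 3′ UTR of each protein-coding gene (GENCODE M21, GRCm38). It was present in 1 of the 35 members, Mfsd2a, and in 12.2% of the 12744 tested genes that had a 3′ UTR. The members' 3′ UTRs were shorter, with a median of 978 nt against 1250 nt over the tested genes. In Mfsd2a the heptamer starts at base 79 of a 391-nt 3′ UTR and occupies chr4:122947156-122947162 on the minus strand. The stretch around it, chr4:122947145-122947174, is given 5′ to 3′ from the GENCODE transcript with the heptamer in capitals. A match is a description of the letters and was not tested as a site.
Mfsd2a: atctctttgcccTTGCACTgagcagctgtt

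None of the vessel genes was called different between the genotypes. Of the 35, 32 had a value of at least 1 in at least 3 libraries and were tested on the log2(value + 1) scale with limma; Anpep, Abcc9 and Myh11 were too low. No member reached a Benjamini-Hochberg adjusted p under 0.05 over all 14708 tested genes, where 0.109% of genes (8 higher and 8 lower in KO) did, and the smallest adjusted p of a member with limma was 0.832. An unadjusted p under 0.05 was reached by 3 members (Mfsd2a, Rgs5 and Slco1c1), against 5.72% of all tested genes. Higher averages in KO were found for 21 members and lower averages for 11, while 48.8% of all tested genes were higher in KO. The median log2 fold change was 0.11 over the tested members and -0.0038 over all tested genes. It was 0.0045 without WT 2-1 (17 members higher, 15 lower), 0.064 without WT 2-2, 0.066 without KO 3-1 and 0.18 without WT 1-1 (27 higher, 5 lower). In whole tissue, a difference in the number of vessel cells and a difference in RNA per vessel cell cannot be told apart.

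The precision of single members limits what a missed threshold can mean. The 95% interval of the log2 fold change included 0 in 29 of the 32 tested members, and its outer bounds reached -0.99 and 0.80, both in Tagln. The median standard error was 0.13 for members and 0.11 for all tested genes. Taking the full exonic length gives an upper bound on the reads behind each value. The smallest such bound over the 6 libraries ranged from 50.2 reads (Anpep) to 1655 reads (Slco1a4) across the members.

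**Figure D1:**
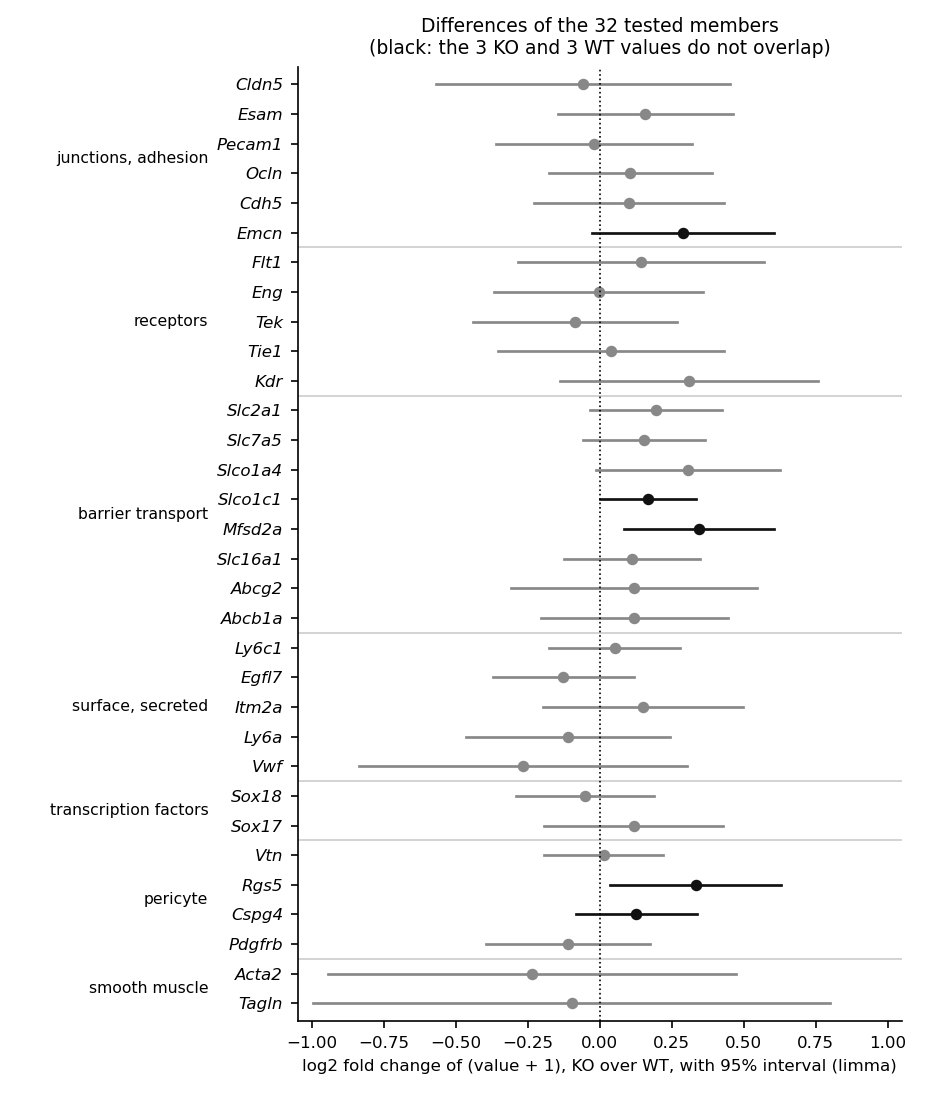
Log2 fold change of (value + 1), KO over WT, with its 95% limma interval for each of the 32 tested members, grouped by role; black marks the members whose 3 KO and 3 WT values do not overlap. All 8 barrier transport genes lie right of 0, only 3 of the 32 intervals exclude 0, and those of Acta2 and Tagln are the widest.

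The 3 KO values lay wholly above the 3 WT values in 5 members (Mfsd2a, Slco1c1, Rgs5, Emcn and Cspg4) and wholly below in 0. Over all tested genes 5.7% were separated with KO higher, 5.67% with KO lower and 11.4% in either direction. These 5 genes are read from the same 6 libraries and share whatever sets a library apart. Leaving out 1 library raised the number of separated members in the cases below, but fewer libraries make separation easier for every gene. The counts are out of 32 tested members and are to be read against the shares beside them. In each case below, the share over all tested genes rose as well, from 11.4%. Without WT 1-1 it held for 15 members, all higher in KO, against 21.7% of tested genes, and without WT 2-1 it held for 8 members, 5 of them higher in KO, against 21.6% of tested genes. Without KO 1-1 it held for 8 members, 7 of them higher in KO, against 22.6% of tested genes, and without KO 2-2 for 9, all higher in KO, against 21.8%.

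The WT libraries lay at both ends of the range for many of these genes. WT 1-1 held the highest of the 6 values in 16 of the 35 members and the lowest in 1. WT 2-1 held the lowest value in 18 members and the highest in 0. Over all tested genes, WT 1-1 was highest in 17.8% and WT 2-1 lowest in 16.4%. Among KO libraries, KO 3-1 was highest in 8 members and lowest in 0, KO 1-1 was highest in 8 and lowest in 5, and KO 2-2 was highest in 2 and lowest in 5.

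For the 26 endothelial genes, the median deviation from each gene's mean (log2 scale) was 0.07 in KO 1-1, -0.05 in KO 2-2 and 0.10 in KO 3-1, against 0.13 in WT 1-1, -0.22 in WT 2-1 and -0.06 in WT 2-2. Both extremes were thus WT libraries, and the KO libraries lay between them. The median log2 fold change of the endothelial members was 0.11. It was 0.016 without WT 2-1 and 0.19 without WT 1-1, so its size rested on which WT libraries entered. The summed value of all 35 members was 390.7, 356.3 and 402.2 in KO 1-1, 2-2 and 3-1, against 405.4, 320.5 and 356.0 in WT 1-1, 2-1 and 2-2, and the groups overlapped.

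**Figure D2:**
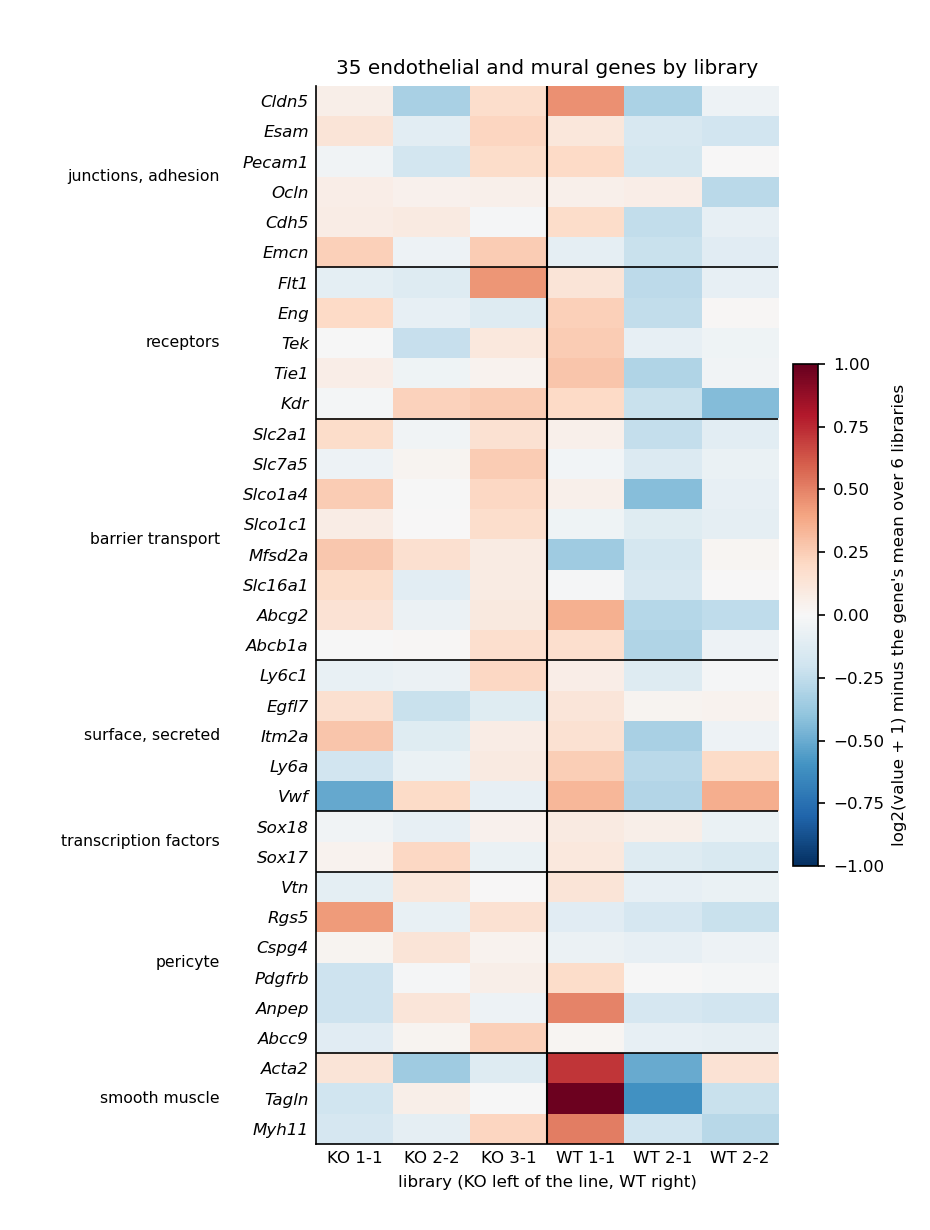
Each cell is log2(value + 1) of a gene in a library minus that gene's mean over the 6 libraries, with the 3 KO libraries left of the line and the 3 WT libraries right of it. The WT 1-1 column holds the highest value in 16 of the 35 genes, most deeply in Acta2, Tagln, Anpep and Myh11, and the WT 2-1 column the lowest in 18.

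Among the endothelial groups, the barrier transport genes had the most uniform pattern. All 8 averaged higher in KO than in WT, with a median log2 fold change of 0.16, and none was called. Their summed value was 139.1, 126.4 and 142.4 in KO 1-1, 2-2 and 3-1, against 126.3, 107.4 and 119.4 in WT 1-1, 2-1 and 2-2. The sums did not overlap, but the lowest KO sum (126.39) and the highest WT sum (126.30) nearly met. All 8 stayed higher in KO when any library other than WT 2-1 was left out. Without WT 2-1, 7 of the 8 were higher in KO and the median was 0.12. The median was 0.24 without WT 1-1. With the shared code as a replicate block, 6 of the 8 were higher in KO and the median was 0.072. Over all tested genes 48.8% were higher in KO. Uneven counts were also found for markers of other cells: 9 higher and 1 lower in KO for neurons, and 8 and 1 for fibroblasts. Oligodendrocyte lineage markers were 2 higher and 8 lower, and astrocyte markers 5 and 5.

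Mfsd2a, which carries docosahexaenoic acid as a lysophospholipid into the brain and limits transcytosis in endothelium, had the smallest unadjusted p of all members. It lies at chr4:122946850-122961188 on the minus strand. Its values were 17.1, 15.8 and 14.9 in KO 1-1, 2-2 and 3-1, against 10.7, 12.3 and 14.2 in WT 1-1, 2-1 and 2-2. The groups did not overlap, but KO 3-1 and WT 2-2 lay close, and WT 1-1, highest for so many vessel genes, was the lowest library here. The KO mean was 15.9 ± 1.10 and the WT mean 12.4 ± 1.76 (SD, n = 3 each), with a limma log2 fold change of 0.34 (SE 0.11, 95% interval 0.08 to 0.61, adjusted p = 0.832). Leaving out 1 library at a time moved it between 0.25 and 0.44. The only member whose 3′ UTR holds TTGCACT was thus higher in all 3 KO libraries and not called. Of the 31 tested members without the heptamer, 20 were also higher in KO. Over the 1558 tested genes with the heptamer the median log2 fold change was 0.020, against -0.0038 over all tested genes. A link between the heptamer and these values was not tested.

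Slco1c1, the thyroid hormone carrier Oatp1c1 (chr6:141524368-141570177, plus strand), had the smallest standard error of the tested members. Its values were 18.2, 17.2 and 19.5 in KO 1-1, 2-2 and 3-1, against 16.6, 15.8 and 16.2 in WT 1-1, 2-1 and 2-2. Every KO library was above every WT library. Its limma log2 fold change was 0.17 (SE 0.07, 95% interval 0.00060 to 0.33, adjusted p = 0.874), and 0.12 to 0.21 with 1 library left out at a time. Its neighbour on chromosome 6, Slco1a4 (Oatp1a4), a carrier of organic anions at the brain endothelium, had 21.1, 17.5 and 20.4 in KO libraries and 18.2, 12.8 and 16.5 in WT libraries. Here WT 1-1 exceeded KO 2-2, so the groups overlapped, and the limma log2 fold change was 0.31 (95% interval -0.015 to 0.63, adjusted p = 0.878); it was 0.17 without WT 2-1.

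Slc2a1 encodes GLUT1, the glucose carrier of the barrier. It had 32.1, 27.5 and 31.4 in KO libraries and 29.2, 23.8 and 26.2 in WT libraries, with WT 1-1 above KO 2-2. Slc7a5, the LAT1 subunit that carries large neutral amino acids, had 24.5, 25.95 and 30.5 in KO libraries and 25.0, 23.0 and 24.3 in WT libraries. KO 3-1 stood above the other libraries for Slc7a5, and the groups overlapped. Their limma log2 fold changes were 0.19 (95% interval -0.03 to 0.42) for Slc2a1 and 0.15 (-0.06 to 0.36) for Slc7a5. That of Slc7a5 was 0.066 without KO 3-1, and that of Slc2a1 was 0.13 without WT 2-1. The lactate carrier Slc16a1 (MCT1) had values of 10.0 to 12.5 in KO and 9.62 to 10.9 in WT. The efflux pumps Abcg2 (BCRP) and Abcb1a (P-glycoprotein) had 6.97 to 8.16 and 5.41 to 6.21 in KO, against 5.83 to 9.65 and 4.20 to 6.23 in WT. For both pumps WT 1-1 was the highest of all libraries.

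**Figure D3:**
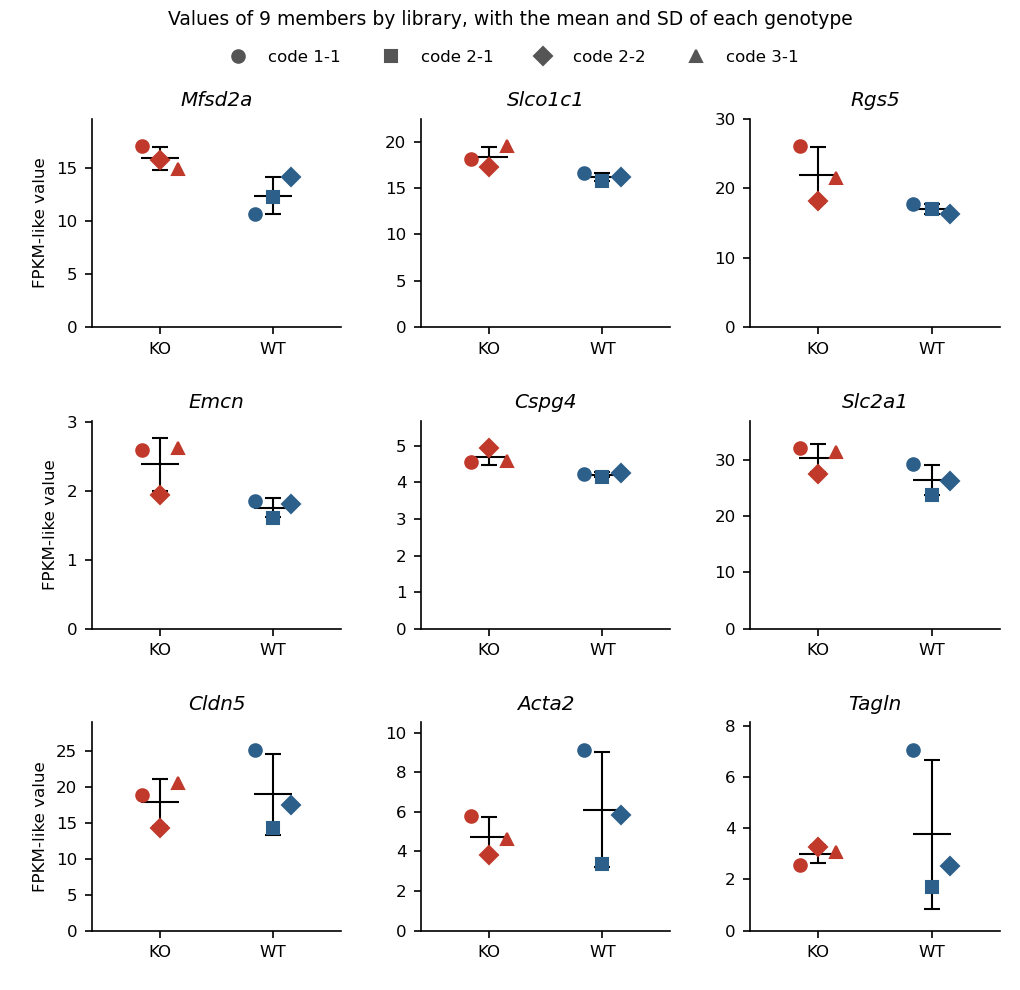
FPKM-like values of 9 members in each library (points; shape gives the code), with the mean and SD of the 3 KO (left) and 3 WT (right) libraries. The top row and the first 2 genes of the middle row do not overlap between genotypes, whereas in Cldn5, Acta2 and Tagln the highest value is WT 1-1.

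Junction and adhesion genes showed no common direction: of 6, 4 averaged higher and 2 lower in KO, with a median log2 fold change of 0.10. That median was 0.041 without WT 2-2, 0.061 without WT 2-1 and 0.19 without WT 1-1. Cldn5, the main claudin of brain tight junctions, had 18.9, 14.2 and 20.5 in KO 1-1, 2-2 and 3-1, against 25.2, 14.3 and 17.4 in WT 1-1, 2-1 and 2-2. WT 1-1 was 1.59 times the mean of the other WT libraries, and the lowest library of each genotype had nearly the same value. Its limma log2 fold change was -0.06 (95% interval -0.57 to 0.45, adjusted p = 0.983); it was 0.15 without WT 1-1, 0.088 without KO 2-2 and -0.23 without WT 2-1.

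Emcn, endomucin, a sialomucin of capillary and venous endothelium (chr3:137341067-137432185, plus strand), had 2.59, 1.94 and 2.63 in KO libraries and 1.86, 1.61 and 1.81 in WT libraries. The groups did not overlap, although KO 2-2 lay close to WT 1-1. Its limma log2 fold change was 0.29 (SE 0.13, 95% interval -0.03 to 0.61, adjusted p = 0.879), and 0.24 to 0.39 with 1 library left out at a time. Esam, an immunoglobulin-type adhesion molecule of endothelial junctions, had 6.58, 5.46 and 7.05 in KO libraries and 6.50, 5.23 and 5.07 in WT libraries. Pecam1 (CD31), which joins endothelial cells to each other, had 4.23, 3.71 and 5.08 in KO libraries and 5.15, 3.73 and 4.36 in WT libraries. Both genes overlapped between genotypes.

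Ocln, the tight junction protein occludin, was even in 5 libraries and low in 1. It had 4.44, 4.33 and 4.37 in KO libraries and 4.36, 4.42 and 3.30 in WT libraries, and its log2 fold change of 0.11 was -0.0020 without WT 2-2. Cdh5, VE-cadherin of the adherens junction, ranged from 2.57 to 2.82 in KO and from 2.03 to 3.07 in WT.

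The 5 receptor genes overlapped between genotypes, with 3 higher and 2 lower averages in KO and a median log2 fold change of 0.04. The median was -0.10 without WT 2-1, 0.015 without KO 1-1, 0.071 without KO 2-2 and 0.19 without WT 1-1. Flt1, the VEGF receptor that binds VEGF-A most tightly, had 6.32, 6.18 and 9.62 in KO libraries and 7.58, 5.54 and 6.41 in WT libraries. KO 3-1 stood above the rest. Eng, the TGF-beta co-receptor endoglin, had 6.05, 4.83 and 4.64 in KO libraries and 6.27, 4.20 and 5.19 in WT libraries, so its highest and lowest values were both WT.

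The angiopoietin receptor Tek (Tie2) had 2.39, 1.90 and 2.66 in KO libraries and 3.05, 2.22 and 2.31 in WT libraries. Its partner Tie1 had 2.37, 2.12 and 2.29 in KO libraries and 2.90, 1.61 and 2.13 in WT libraries. In both receptors WT 1-1 was the highest library. Kdr, the main signalling receptor for VEGF-A, ranged from 2.04 to 2.68 in KO and from 1.28 to 2.54 in WT, with a limma log2 fold change of 0.31 (95% interval -0.14 to 0.76, adjusted p = 0.893); it was 0.17 without WT 2-2 and 0.48 without WT 1-1.

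Surface and secreted endothelial products were the only endothelial group with a negative median, -0.11, with 2 of 5 higher and 3 lower in KO. It lay nearer to 0 without WT 1-1 (-0.016), KO 1-1 (-0.042), WT 2-2 (-0.044) or KO 2-2 (-0.046). Ly6c1, a GPI-anchored surface protein and the most abundant member, had 39.5, 40.0 and 48.3 in KO libraries and 43.8, 37.9 and 41.3 in WT libraries. Egfl7, a secreted protein of the vessel matrix, had 32.1, 24.4 and 26.2 in KO libraries and 31.3, 29.3 and 29.4 in WT libraries. KO 1-1 was thus the highest library for Egfl7 while the other KO libraries were the lowest. Its limma log2 fold change was -0.13 (95% interval -0.37 to 0.12, adjusted p = 0.918); it was -0.24 without KO 1-1 and -0.046 without KO 2-2.

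Itm2a, a membrane protein enriched in brain endothelium, had 27.0, 20.3 and 23.3 in KO libraries and 24.7, 17.4 and 21.4 in WT libraries. Ly6a (Sca-1) had 16.2, 17.9 and 20.0 in KO libraries and 22.4, 15.4 and 21.5 in WT libraries. The genotypes overlapped in both, and WT 2-1 was lowest in both. Vwf, the clotting factor stored in endothelial granules and enriched in veins, ranged from 2.58 to 4.83 in KO and from 3.16 to 5.56 in WT, and its limma log2 fold change was -0.27 (95% interval -0.84 to 0.30). It was -0.079 without KO 1-1, -0.15 without WT 2-2, -0.17 without WT 1-1, -0.43 without KO 2-2 and -0.48 without WT 2-1. The lowest Vwf value was KO 1-1, a library whose median endothelial deviation was 0.07.

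The transcription factors of endothelial and arterial identity overlapped between genotypes. Sox18 had 3.54, 3.40 and 3.80 in KO libraries and 3.95, 3.86 and 3.45 in WT libraries. Sox17 had 2.94, 3.43 and 2.66 in KO libraries and 3.13, 2.51 and 2.45 in WT libraries. The limma log2 fold changes were -0.05 (95% interval -0.29 to 0.19) for Sox18 and 0.12 (-0.19 to 0.43) for Sox17. Leaving out 1 library gave -0.099 (without WT 2-2) to -0.023 (without WT 1-1) for Sox18, and 0.044 (without KO 2-2) to 0.20 (without WT 1-1) for Sox17.

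Among the mural genes, those of pericytes and of smooth muscle differed in how they spread over the libraries. The 6 tested mural members split into 3 higher and 3 lower in KO, with a median log2 fold change of -0.04. It was above 0 without WT 1-1 (0.11) or KO 1-1 (0.021), and lower without KO 2-2 (-0.079), WT 2-1 (-0.081) or WT 2-2 (-0.083). WT 1-1 was the highest library in 6 of the 9 mural genes.

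Rgs5, a regulator of G-protein signalling and a pericyte marker (chr1:169655501-169695813, plus strand), had 26.1, 18.2 and 21.5 in KO 1-1, 2-2 and 3-1, against 17.7, 17.0 and 16.4 in WT 1-1, 2-1 and 2-2. The WT libraries were close together, the KO libraries spread upward from them, and the groups did not overlap. The KO mean was 21.9 ± 3.98 and the WT mean 17.0 ± 0.683 (SD, n = 3 each), with a limma log2 fold change of 0.33 (SE 0.13, 95% interval 0.04 to 0.63, adjusted p = 0.846). With 1 library left out at a time it ranged from 0.20 (without KO 1-1) to 0.45.

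Cspg4, the proteoglycan NG2, is made by pericytes and also by oligodendrocyte precursors (chr9:56865033-56899870, plus strand). It had 4.55, 4.95 and 4.58 in KO libraries and 4.24, 4.14 and 4.27 in WT libraries. All KO values were higher, by a small margin, and the limma log2 fold change was 0.13 (SE 0.09, 95% interval -0.08 to 0.34, adjusted p = 0.893). With 1 library left out at a time it ranged from 0.094 to 0.14. Of 10 tested oligodendrocyte lineage markers, 2 were higher and 8 lower on average in KO. The precursor receptor Pdgfra had 12.6 to 13.04 in KO and 12.4 to 12.8 in WT, and Gpr17, of committed precursors, had 12.9 to 15.5 in KO and 11.8 to 13.5 in WT. The lineage factor Olig2 had 12.3 to 12.9 in KO and 12.9 to 15.0 in WT, and C1ql1 had 7.97 to 9.25 in KO and 8.03 to 8.98 in WT. All 4 overlapped between genotypes, and the part of precursor RNA in the Cspg4 values was not tested.

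Vtn, vitronectin, an abundant secreted product of brain pericytes, had 24.9, 29.0 and 26.8 in KO libraries and 29.4, 25.2 and 25.4 in WT libraries. Pdgfrb, the receptor through which pericytes are recruited, had 2.89, 3.45 and 3.66 in KO libraries and 4.11, 3.49 and 3.42 in WT libraries. Thus the pericyte genes did not move as 1 block: Rgs5 and Cspg4 were separated with KO higher, Vtn had a log2 fold change of 0.014, and Pdgfrb of -0.11 (95% interval -0.39 to 0.18, limma adjusted p = 0.933). Leaving out 1 library moved Pdgfrb between -0.16 (without KO 3-1) and -0.033 (without KO 1-1). The untested pericyte genes were Anpep, aminopeptidase N, at 0.584 to 0.981 in KO and 0.598 to 1.57 in WT, and Abcc9, the SUR2 subunit of potassium channels, at 0.701 to 1.16 in KO and 0.725 to 0.86 in WT.

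The smooth muscle genes were the most uneven members. Acta2, smooth muscle actin, had 5.77, 3.83 and 4.64 in KO libraries and 9.14, 3.36 and 5.83 in WT libraries. Tagln, the actin-binding protein SM22, had 2.58, 3.26 and 3.09 in KO libraries and 7.07, 1.69 and 2.51 in WT libraries. Myh11, smooth muscle myosin, had 0.847, 0.946 and 1.41 in KO libraries and 1.96, 0.809 and 0.713 in WT libraries. In all 3 genes the highest value was WT 1-1, at 1.99 times (Acta2), 3.37 times (Tagln) and 2.58 times (Myh11) the mean of the other WT libraries.

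The limma log2 fold changes of -0.24 for Acta2 (95% interval -0.95 to 0.47, adjusted p = 0.949) and -0.10 for Tagln (-0.99 to 0.80, adjusted p = 0.983) were accordingly wide. Without WT 1-1 they were 0.061 for Acta2 and 0.37 for Tagln, and without WT 2-1 they were -0.55 for Acta2 and -0.42 for Tagln. The summed smooth muscle value was 9.20, 8.04 and 9.14 in KO 1-1, 2-2 and 3-1, against 18.2, 5.86 and 9.05 in WT 1-1, 2-1 and 2-2, so the highest and the lowest sums were both WT. The fibroblast markers, 9 tested of 12, also had their highest sum in WT 1-1, with 39.3, 73.6 and 57.3 in KO libraries and 79.6, 46.0 and 52.1 in WT libraries. Their part in the smooth muscle values was not tested.

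Further vessel genes were read from lists of the same pathways, and none of them was called. They were read from the same 6 libraries as the members, and their directions were not counted with a library left out. Of 30 other endothelial genes, 26 were tested, 21 averaged higher and 5 lower in KO, with a median log2 fold change of 0.07. Over all tested genes 48.8% were higher in KO. Adgrf5, an adhesion GPCR of endothelium, had 8.96, 8.38 and 11.4 in KO libraries and 7.38, 5.33 and 6.30 in WT libraries, without overlap (limma log2 fold change 0.53, adjusted p = 0.766). Tfrc, the transferrin receptor that takes iron across the barrier and is also made by neurons, had 35.4, 37.1 and 32.7 in KO libraries and 45.3, 38.4 and 48.7 in WT libraries, again without overlap (log2 fold change -0.32, limma adjusted p = 0.832). The fold changes of these top 2 genes thus had opposite signs. Ramp2, the adrenomedullin co-receptor, had 21.4 to 25.5 in KO and 18.1 to 21.9 in WT, and 33.4% of its exonic bases lie in Vps25 on the same strand.

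Other junction and basement membrane genes averaged higher in KO in 11 of 12 tested, against 48.8% of all tested genes. Their median was 0.09, and none had an unadjusted p under 0.05. The leading genes were the basement membrane collagens Col4a2, at 7.37 to 8.30 in KO and 5.95 to 7.78 in WT, and Col4a1, at 6.23 to 7.18 in KO and 5.53 to 6.96 in WT, with the linker Nid2 at 0.785 to 1.57 in KO and 0.495 to 1.38 in WT. All 3 overlapped between genotypes. In 1 gene of this list, Lamc1, a laminin chain, the groups did not overlap, with 6.31 to 6.65 in KO and 5.94 to 6.17 in WT. Vascular ligands and their signalling genes were split, with 11 higher and 8 lower of 19 tested. Separated genes of this list were 1 in each direction. Over all tested genes, 5.7% were separated with KO higher and 5.67% with KO lower. Hey1, a Notch target, was lower in every KO library than in any WT library, at 18.8 to 20.4 in KO and 20.7 to 22.6 in WT (limma log2 fold change -0.13, adjusted p = 0.893). Tgfb1 was higher in every KO library, at 2.31 to 2.65 in KO and 2.11 to 2.27 in WT (limma log2 fold change 0.14, adjusted p = 0.914). The ligands Ndp and Wnt7a, which drive beta-catenin signalling in brain endothelium, had 3.72 to 4.85 and 5.29 to 6.71 in KO, against 3.00 to 3.99 and 4.64 to 5.51 in WT, and both overlapped.

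Other pericyte genes were mostly lower on average in KO, with 3 higher and 8 lower of 11 tested and a median of -0.012. Mcam (CD146) had 7.65, 5.30 and 8.21 in KO libraries and 10.9, 9.36 and 10.2 in WT libraries. All KO values were below all WT values, the limma log2 fold change was -0.49, and the adjusted p was 0.832. Higd1b ranged from 3.08 to 4.33 in KO and from 3.38 to 4.63 in WT. Notch3, the receptor needed for mural cell maturation, ranged from 1.53 to 1.66 in KO and from 1.43 to 2.22 in WT.

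Of 12 other smooth muscle genes 5 were tested, 2 higher and 3 lower in KO. Smtn, Mylk and Tpm2, which belong to the contractile apparatus, had 2.49 to 4.63, 4.01 to 5.54 and 1.79 to 3.18 in KO, against 2.20 to 2.72, 3.26 to 4.49 and 1.71 to 3.76 in WT. All of them overlapped between genotypes. Of 9 tested venous and arterial genes, 5 were higher and 4 lower in KO. Ackr1, a chemokine-binding receptor of venules, had 26.9, 23.5 and 22.6 in KO libraries and 33.4, 25.6 and 32.3 in WT libraries (limma log2 fold change -0.30, adjusted p = 0.863). The groups overlapped, and 25.7% of its exonic bases lie in Cadm3 on the same strand. Vcam1, a leukocyte adhesion molecule, had 8.31 to 8.48 in KO and 7.09 to 7.56 in WT, and the arterial factor Hey2 had 1.29 to 1.65 in KO and 0.973 to 1.16 in WT; both were separated with KO higher. Their limma adjusted p values were 0.875 for Vcam1 and 0.879 for Hey2. Of all tested genes, 5.7% were separated with KO higher.

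Markers of other cells in the dissection varied between libraries as well. The erythroid markers, mainly haemoglobin genes, summed to 441.4, 214.9 and 228.3 in KO 1-1, 2-2 and 3-1, against 294.7, 159.0 and 222.5 in WT 1-1, 2-1 and 2-2, all 5 tested genes averaging higher in KO. Like the endothelial members, they were lowest in WT 2-1. The choroid plexus markers summed to 24.1, 19.8 and 11.04 in KO libraries and 9.43, 9.16 and 10.4 in WT libraries, with all 4 tested genes higher in KO. Their leading gene Ttr, transthyretin, had 12.2, 10.7 and 2.74 in KO libraries and 1.68, 1.41 and 2.57 in WT libraries (limma log2 fold change 1.55, adjusted p = 0.832).

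Choroid plexus epithelium is known to make Slco1c1 as well. The 3 WT libraries were lowest in both the choroid sum and Slco1c1. Among KO libraries, KO 1-1 had a choroid sum of 24.1 with a Slco1c1 value of 18.2, KO 2-2 had 19.8 with 17.2, and KO 3-1 had 11.04 with 19.5. The part of choroid plexus RNA in the carrier values was not tested. Ependymal markers summed to 56.0, 24.6 and 34.4 in KO libraries and 25.4, 27.4 and 35.9 in WT libraries. Microglial and macrophage markers summed to 197.2 to 283.7 in KO and 226.0 to 251.5 in WT. Of 12 blood leukocyte markers, 10 were below 1 in every library, and the list summed to 5.5 to 7.21 in KO and 6.53 to 7.04 in WT. Astrocyte markers summed to 1186 to 1442 in KO and 1219 to 1353 in WT, neuron markers to 3144 to 3878 in KO and 3173 to 3461 in WT, and oligodendrocyte lineage markers to 1916 to 2840 in KO and 2302 to 3401 in WT. Of these sums for markers of other cells, that of the choroid plexus markers separated the genotypes and the others overlapped. Single tested markers without overlap were Gja1 (astrocyte), Gad2 (neuron), P2ry12 (microglia), Lum (fibroblast) and Ttr, all higher in KO. The astrocyte gene Gfap was separated with KO lower. Over all tested genes 5.7% were separated with KO higher and 5.67% with KO lower.

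**Figure D4:**
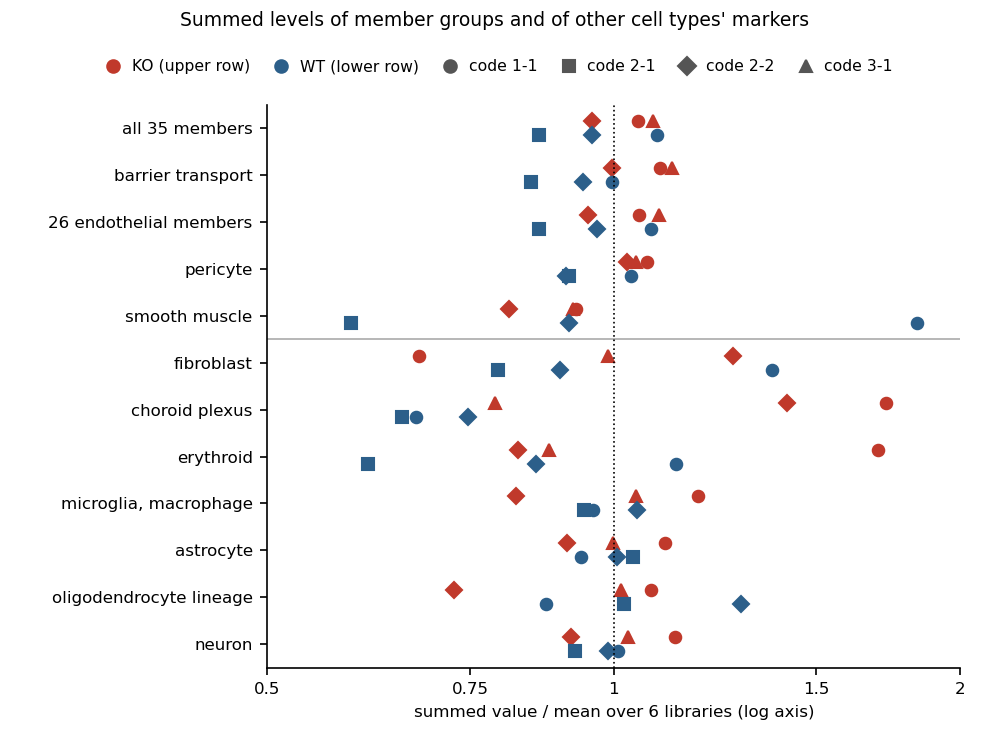
Summed FPKM-like values of member groups (above the grey line) and of markers of other cells (below it), each divided by its mean over the 6 libraries, on a log axis; for each group the KO libraries are in the upper row and the WT libraries in the lower row, and shape gives the code. The WT libraries 1-1 and 2-1 enclose the KO libraries for all 35 members and for smooth muscle, and choroid plexus markers are highest in KO 1-1 and KO 2-2.

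Several members share sequence with other genes, and how such reads were counted, and whether strand was used, is not stated in the labels. In Tagln 67.9% of exonic bases lie opposite exons of Pcsk7 and Gm48529, and 58.3% of its 50-base stretches also occur in those genes. Pcsk7 had 6.06, 9.44 and 6.21 in KO libraries and 7.02, 6.90 and 6.38 in WT libraries, and Gm48529 had 0.534, 0.373 and 0.616 in KO libraries and 0.413, 0.530 and 0.553 in WT libraries. Their part in the Tagln values was not tested. In Ly6c1 32.8% of the 50-base stretches occur in other genes, chiefly Ly6c2, which had values of only 0.098 to 0.534. The corresponding share was 22.5% in Abcb1a (mainly Abcb1b), 19.0% in Ly6a, 15.0% in Sox17 (Gm37587) and 5.33% in Egfl7, and it was below 2% in every other member, the 5 separated genes included. The authors' deposited table also gives a p-value for each gene, which was 1 for all 35 members and for 64.9% of its 30876 genes with a p-value.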

How the data were processed

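Per the labels' protocols, poly(A) RNA was selected from Trizol extracts, fragmented and reverse transcribed with random primers. Per the submitters' processing notes, mm10, bcl2fastq, HTSeq and HISAT2 2.1.0 were involved in unstated roles, while the series' design text names other programs. Values were used as deposited by the authors and read as FPKM, since they are not whole numbers and their library sums differ; the table names no unit. The authors' deposited table also holds log2 fold changes and p-values, whose test is not stated. From these values log2(value + 1) was fitted with limma 3.58.1 in R 4.3.3 (genotype as the only term, empirical Bayes with trend, two-sided), over genes with a value of at least 1 in at least 3 of 6 libraries, with Benjamini-Hochberg adjustment over all tested genes. The count-based test planned for raw counts was not used, because the values are normalized. Fold changes understate low genes. No interval from counting was computed, since exact read counts are not known. Positions and 3′ UTRs came from GENCODE M21 (GRCm38); counts and figures used Python 3.11.15, numpy 2.4.6, pandas 2.3.3 and matplotlib 3.10.9. The fit was tested on simulated data with independent noise in each library and planted changes larger than those of the members. That test does not cover smaller changes or shifts shared by a whole library.

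The members and lists were chosen with earlier results of these data known. By rule, all 35 members were accounted for by role, with values per library for up to 4 members a role by mean level and for any member with an unadjusted p under 0.05 or no overlap; of other lists, up to 3 genes by smallest p were named. Pcsk7, Gm48529, Ly6c2, Pdgfra, Gpr17, Olig2, C1ql1, Lamc1, Tgfb1, Gja1, Gad2, P2ry12, Lum and Gfap were named after their values were seen. Alternatives were another pseudocount (0.1), no floor, 2 other scalings, no trend, leaving out each library, and the title codes as a block. What the codes stand for is not stated, so the libraries were not treated as paired. The codes 1-1 and 2-2 occur in both genotypes, and the correlations of the libraries' deviations were -0.099 and -0.061. Pairs with unlike codes ranged from -0.057 to 0.11, so these correlations cannot settle whether libraries were paired.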

Additional observations from a re-analysis of the deposited data

How the results depend on the processing

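No member was called under any alternative, and the smallest adjusted p of a member with limma was 0.749. Of 416 values of members' log2 fold changes under alternatives, 384 kept their sign and 32 changed it, in 13 members. Genes called over the whole table numbered 16, against 4 without a floor on low values and 4 to 17 leaving out 1 library. With the shared code as a replicate block 0 genes were called, and with its first number as a replicate block 8. Of the 32 tested members, 15 were higher and 17 lower in KO with the code block (median -0.017), and 19 higher and 13 lower with the first-number block (median 0.030). The endothelial median log2 fold change was 0.0074 and 0.0399 with these blocks, and 0.016 to 0.19 leaving out 1 library; all 8 barrier transport genes were higher in KO with the first-number block and 6 with the code block. The mural median was -0.083 to 0.11 and the members without overlap numbered 5 to 15 leaving out 1 library. In the cases given earlier, the share of separated genes over all tested genes rose as well. Scaled to a common sum without mitochondrial genes, 56.4% of all tested genes were higher in KO (median 0.019) and 23 of 32 members, and Pecam1 came to 0.0013 and Eng to 0.017. With the code block Tie1 came to -0.11, Flt1 to -0.14, Abcb1a to -0.056, Abcg2 to -0.011, Ly6c1 to -0.094 and Vtn to -0.023. With the first-number block Tie1 came to -0.018, Flt1 to -0.072, Ly6c1 to -0.053 and Eng to 0.0033. Leaving out 1 library gave -0.23 to 0.15 for Cldn5, -0.12 to 0.076 for Pecam1, -0.16 to 0.016 for Tek, -0.10 to 0.19 for Tie1, -0.041 to 0.24 for Flt1, -0.0014 to 0.24 for Abcb1a, -0.041 to 0.10 for Ly6c1, -0.13 to 0.11 for Eng, -0.0020 to 0.16 for Ocln, -0.040 to 0.083 for Vtn, -0.55 to 0.061 for Acta2 and -0.42 to 0.37 for Tagln. The causes were not tested.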
